A study of Mus musculus with 4 samples.

Results

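Tns1, Pdlim5 and Mical2 are 3 mouse genes whose proteins act on the actin cytoskeleton and its attachment to the substrate, and their binding sites for the glucocorticoid receptor (GR) were described after 12 h and 1 h of corticosterone. Sites were the listed peaks whose centre lay in the span of a gene or within 100 kb of it, in RefSeq spans of GRCm38, the assembly of mm10. Of the 2883 peaks in the 12 h list 10 met this rule, and of the 5638 peaks in the 1 h list 23 did. Paired by an overlap of 1 bp or more, they made 24 sites, of which 9 were in both lists, 1 was listed at 12 h alone and 14 at 1 h alone. The single peak of untreated cells did not lie near these genes. The genes were chosen by their listed peaks and normalised tag counts at 12 h and 1 h, so their counts and tags are descriptions.

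The assay was ChIP-seq, the sequencing of DNA that an antibody to GR pulls down from sheared chromatin, in 33AP1C9 cells, a line derived from C127 mouse mammary epithelial cells. All groups share stable copies of an MMTV-pp7 reporter, driven by a hormone-responsive viral promoter, and a GFP-tagged PP7 coat protein. Cells received 600 nM corticosterone for 12 h or 1 h, or were left untreated, with 1 library for each. The libraries held 97749688 tags at 12 h, 90556119 at 1 h and 79203826 untreated. The antibody was a GR cocktail, and the labels give a different catalogue number for its second antibody in each sample. No RNA was measured in these files, so a site near a gene is a position and says nothing of the gene's expression.

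Corticosterone, the main glucocorticoid of the mouse, enters cells and binds GR, which then moves to the nucleus and binds DNA at glucocorticoid response elements. Tensin 1, the product of Tns1, joins the cytoplasmic tails of integrins to actin filaments at adhesions. Pdlim5 encodes a scaffold with a PDZ domain and LIM domains that binds alpha-actinin along actin bundles, and Mical2 encodes a flavin monooxygenase that oxidises actin and so promotes filament disassembly. Glucocorticoids are known to reorganise actin filaments and adhesions in several cell types.

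Values below are normalised tags, the tags in a peak window scaled by the peak caller to a library of 10000000 tags. Windows were 302 bp at 12 h and 282 bp at 1 h. Both treated lists used the untreated GR library as control, and a peak was listed only at 6-fold or more over that library and over the surrounding 10 kb. Intervals of a log2 ratio are exact binomial 95% intervals from the whole tags, cover counting error only and compare single libraries. Sites are numbered in each gene in the direction of transcription, including sites upstream of the start.

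The 3 genes had different patterns. Tns1 held a dense series of sites at both times, with 8 at 12 h and 11 at 1 h, and 7 of them were in both lists. Pdlim5 held 1 very strong site at both times and a weak distant one at 1 h only. Mical2 had 1 weak site at 12 h and 10 weak to moderate sites at 1 h. Of the 23 sites at 1 h, 14 were in the 1 h list only, beside 56.8% of all 1 h peaks. Of the 10 sites at 12 h, 1 was in the 12 h list only, beside 15.5% of all 12 h peaks.

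**Figure D1:**
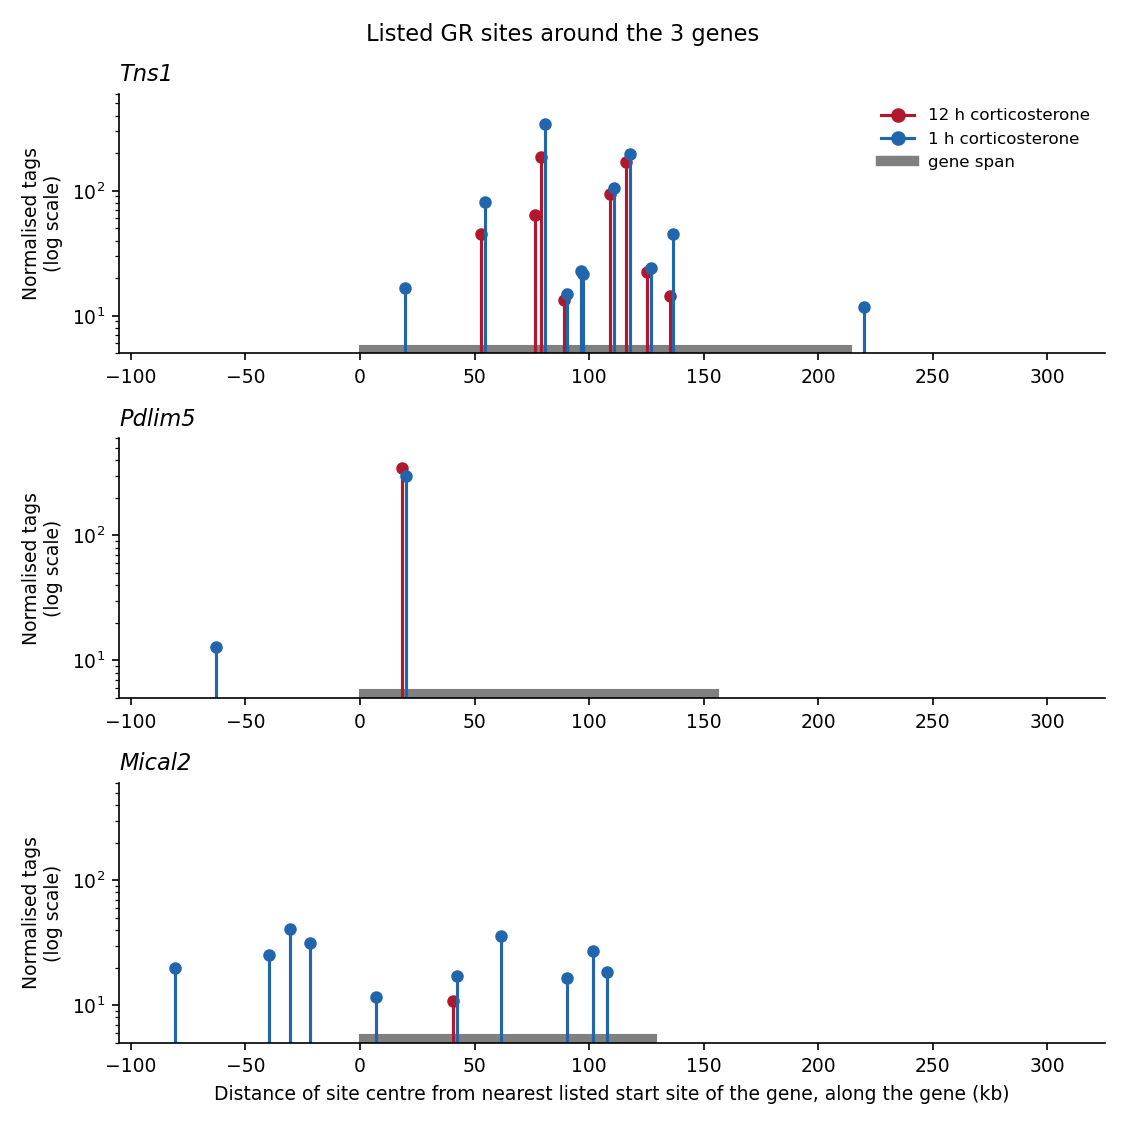
Normalised tags (log scale) of each listed site against the distance of its centre from the nearest listed start site of the gene, in kb, with 12 h stems drawn slightly left of 1 h stems and the gene span as a grey bar. Tns1 has 8 sites at 12 h and 11 at 1 h, Pdlim5 has 1 and 2, and Mical2 has 1 and 10.

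Tns1 lies on chromosome 1 (73910232 to 74124548, minus strand) and spans 214.3 kb. All 8 of its 12 h sites and 10 of its 11 sites at 1 h were inside the span. Among 21887 protein-coding genes, 2 genes held at least as many sites inside their span as Tns1, itself included, at 12 h and also at 1 h. The other was Csmd3, whose span is 1212 kb. Per 100 kb of span, Tns1 held 3.73 sites at 12 h and 4.67 at 1 h, against 0.66 and 0.908 in Csmd3. The sites from 53.6 to 136 kb downstream of the start formed a run in which neighbouring centres were between 1.15 and 23.5 kb apart.

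The strongest Tns1 site, number 4, lay 79.9 kb downstream of the start (chr1:74044509-74044811 at 12 h, chr1:74044540-74044822 at 1 h). It held 185.8 tags at 12 h, against 341.6 at 1 h, and ranked 20 by score in the 12 h list and 4 in the 1 h list. The untreated library held 15 raw tags in both windows. The log2 ratio of 12 h over 1 h was -0.88 (-0.96 to -0.79), a fold of 0.544. For comparison, the median log2 ratio over all 2436 sites in both lists was -0.495, and this site lay at the 29.3rd percentile of them. Its 12 h tags were thus lower by more than counting error and also lower relative to the median site.

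Sites 9 and 8, 117 and 110 kb downstream of the start, were the next strongest at 1 h and kept most of their tags. Site 9 (chr1:74007749-74008031 at 1 h) held 170.5 tags at 12 h, against 198.3 at 1 h, with 11 and 10 raw tags in the untreated library. Site 8 (chr1:74014639-74014921 at 1 h) held 94.7 tags at 12 h, against 104.8 at 1 h, with 6 untreated raw tags in either window. The log2 ratios were -0.22 (-0.32 to -0.12) at site 9 and -0.15 (-0.28 to -0.01) at site 8, so both were slightly lower at 12 h, but higher, by 0.28 and 0.35, once the median of all paired sites was set to 0. Site 8 had the highest fold over the surrounding region of the Tns1 sites, 66.52 at 12 h, against 70.79 at 1 h, and stood 125.05-fold over the untreated library at 12 h, against 138.34-fold at 1 h.

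The sites at both ends of the run were lower at 12 h. Site 11, the last inside the gene (chr1:73987948-73988230 at 1 h), held 14.4 tags at 12 h, against 45.3 at 1 h. Its log2 ratio of -1.65 (-1.94 to -1.37) was the lowest of the 9 paired sites of the 3 genes and lay at the 6.49th percentile of all paired sites. Site 2, the first paired site (chr1:74070803-74071085 at 1 h), held 45 tags at 12 h, against 81.6 at 1 h, a log2 ratio of -0.86 (-1.03 to -0.69). The untreated library held 23 and 24 raw tags there, the most among the Tns1 sites. Both ratios stayed below the median of all paired sites, by -1.16 and -0.36.

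A pair of weak sites differed by less than counting error. Site 10 (chr1:73998523-73998805 at 1 h) held 22.5 tags at 12 h, against 24.2 at 1 h, with an interval of the log2 ratio from -0.38 to 0.17. Site 5 (chr1:74034614-74034896 at 1 h) held 13.3 tags at 12 h, against 14.9 at 1 h, with an interval from -0.52 to 0.19. Both could be paired only above the caller's minimums, so their ratios are partly set by the listing. By the untreated tags in the 1 h windows, site 10 would have failed below 56.4% of its 1 h tags, and site 5 below 71.2%. At sites 9 and 8 these limits were 3.82% and 4.34%. The paired Tns1 sites differed in their ratios by more than counting error in single libraries. The interval of site 11 lay wholly under those of the 6 other paired Tns1 sites, and the interval of site 4 lay wholly under those of sites 8, 9, 10 and 5.

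**Figure D2:**
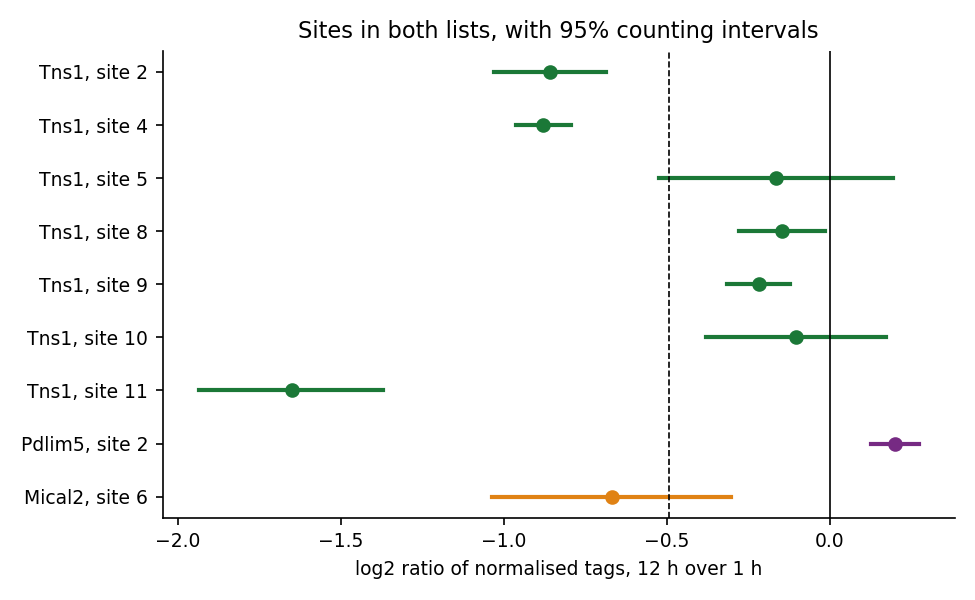
log2 ratio of normalised tags, 12 h over 1 h, at the 9 sites in both lists, with exact binomial 95% counting intervals as bars, the solid line at 0 and the dashed line at -0.495, the median of all paired sites. Tns1 sites run from -1.65 to -0.10, the Pdlim5 site is at 0.20 and the Mical2 site at -0.67.

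Site 3 of Tns1 was the only site of these genes in the 12 h list alone. It held 64.2 tags at 12 h (chr1:74047352-74047654), ranked 238 by score, and had 10 raw tags in the untreated library. Its centre lay 2.84 kb from site 4. At 12 h it stood 50.89-fold over the untreated library but 6.69-fold over the surrounding 10 kb, where the minimum was 6. To reach 6-fold over the untreated library at 1 h, 7.58 tags would have been enough. A 1 h value for this window is not given, and site 4, with 341.6 tags at 1 h, lies inside the region used for the local minimum. The part of site 4 in the missing 1 h entry was not tested.

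Another 4 Tns1 sites were in the 1 h list only. Sites 6 and 7, which lay 1.15 kb apart, held 22.6 and 21.4 tags at 1 h and stood 7.59-fold and 7.35-fold over the local region. Site 1, inside the gene 18.7 kb from the start, held 16.8 tags, and site 12, which lay 4.63 kb beyond the far end of the span, held 11.7. Sites 6 and 7 were above the median of 18.3 over the 1 h list, and sites 1 and 12 were below it. Summed over the 7 paired sites, Tns1 held 546.2 tags in 2.114 kb at 12 h, against 810.7 in 1.974 kb at 1 h, a log2 ratio of -0.57 (-0.62 to -0.52). Site 4 alone held 38.7% of the 883.2 tags summed over all 11 sites at 1 h. At 12 h it held 30.4% of the 610.4 tags summed over all 8 sites. These 2 sums run over different sites, so the shares are not like for like.

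Pdlim5 lies on chromosome 3 (142239585 to 142395719, minus strand) and spans 156.1 kb. Its site 2 lay inside the gene, 19.2 kb downstream of the nearer of its 2 listed start sites (chr3:142372491-142372793 at 12 h, chr3:142372498-142372780 at 1 h). It held 345.2 tags at 12 h, against 300.5 at 1 h, and ranked 3 in the 12 h list and 10 in the 1 h list. The untreated library held 17 and 16 raw tags in these windows. The log2 ratio was 0.20 (0.13 to 0.27), the only positive one among the 9 paired sites, and lay at the 85.6th percentile of all paired sites. Taken per base of the window it was 0.10, below that interval.

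The site stood 160.82-fold over the untreated library at 12 h, against 148.74-fold at 1 h, and 70.72-fold over the local region at 12 h, against 74.60-fold at 1 h. No other site lay inside the Pdlim5 span at either time. Site 1, which lay 63.6 kb outside the span on the upstream side and was nearer to Gbp5, a guanylate-binding protein gene, was in the 1 h list only. It held 12.9 tags at 1 h (chr3:142459210-142459492), with 10 untreated raw tags. Tns1 and Pdlim5 thus both held a leading site of over 300 tags at 1 h, and the intervals of their log2 ratios, -0.96 to -0.79 and 0.13 to 0.27, did not overlap.

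Mical2 lies on chromosome 7 (112225825 to 112355194, plus strand) and spans 129.4 kb. Its only 12 h site was number 6, 41.6 kb downstream of the start. That site held 10.8 tags at 12 h (chr7:112267294-112267596), against 17.2 at 1 h (chr7:112267361-112267643), with 12 and 11 untreated raw tags. The log2 ratio of -0.67 had an interval of -1.04 to -0.30, which includes the median of all paired sites. At 12 h it was close to the caller's limits, at 7.16-fold over the untreated library and 6.19-fold over the local region.

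The other 9 Mical2 sites were in the 1 h list only. The strongest was site 3, 31.4 kb upstream of the start (chr7:112194291-112194573), with 40.6 tags, 12 untreated raw tags and a local fold of 17.02. Site 7, inside the gene (chr7:112286301-112286583), held 36.1 tags, 13.62-fold over the untreated library, which held 21 raw tags there. Site 4, 22.8 kb upstream and inside the long noncoding RNA gene Gm39070, held 31.6 tags, 8.63-fold over the untreated library. Its 29 untreated raw tags were the most of any site here. Site 9, inside the gene 101 kb from the start, held 27.3 tags.

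Of the rest, site 2 held 25.1 tags at 1 h and lay nearer to Dkk3, which encodes a secreted protein of the Dickkopf family. Site 1 held 19.9 tags and lay inside Dkk3. Sites 10, 8 and 5, all inside Mical2, held 18.3, 16.6 and 11.6 tags. In all, 6 of the 10 sites at 1 h lay inside the Mical2 span, and 6 held more than the median of the 1 h list. No site of Mical2 at 1 h reached the tags of the 4 strongest Tns1 sites or of the Pdlim5 site.

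**Figure D3:**
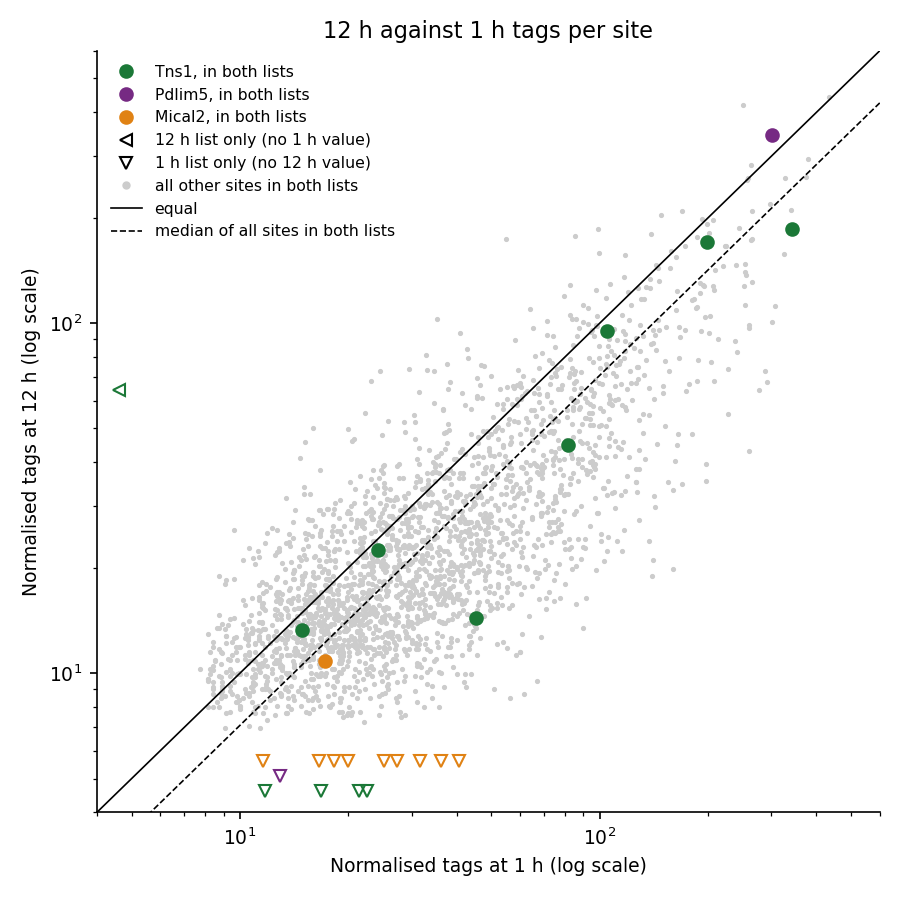
Normalised tags at 12 h (vertical) against 1 h (horizontal), both on log scales, for all sites in both lists (grey) and for the sites of the 3 genes (coloured), with open triangles at the axes for sites in 1 list only, which have no value at the other time. The Pdlim5 site is the only coloured paired site above the line of equality, and 9 Mical2 sites stand as triangles between 11.6 and 40.6 tags at 1 h.

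Absence from the 12 h list has to be read against how close a site was to the caller's limits. A margin was taken for each site as the smallest of 3 ratios, its fold over the untreated library to the minimum of 6, its local fold to the minimum of 6, and its score to the threshold of 75. The median margin was 1.61 in the 1 h list. Mical2 sites had margins between 1.01 and 2.84 at 1 h, with a median of 1.42, and Tns1 sites between 1.01 and 11.8, with a median of 2.07. Site 10 of Mical2, with 22 untreated raw tags, would have failed the fold over the untreated library below 90.9% of its 1 h tags. At site 3 of Mical2 this limit was 22.4% of the 1 h tags, or 9.09 tags. The local minimum was nearer there, since its margin of 2.84 came from its local fold of 17.02.

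Wider sets of 1 h peaks give the background for Mical2, where 1 of 10 sites at 1 h was listed at 12 h. Of all 1 h peaks 43.2% were listed at 12 h, of the 3573 peaks within the Mical2 range of tags 39.2% were, and of the 3200 that were also within its range of margins 35.2% were. Among 1 h peaks with a margin of 2 or more, 75.0% were listed at 12 h. Sites 3, 7 and 9 of Mical2 had such a margin, and 0 of these 3 were listed at 12 h, while 5 of 6 such Tns1 sites and the 1 such Pdlim5 site were. Among 1 h peaks with a margin below 2, 24.8% were listed at 12 h, against 1 of 7 in Mical2, 2 of 5 in Tns1 and 0 of 1 in Pdlim5. These genes were chosen with the lists known, so the shares describe them and support nothing further.

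**Figure D4:**
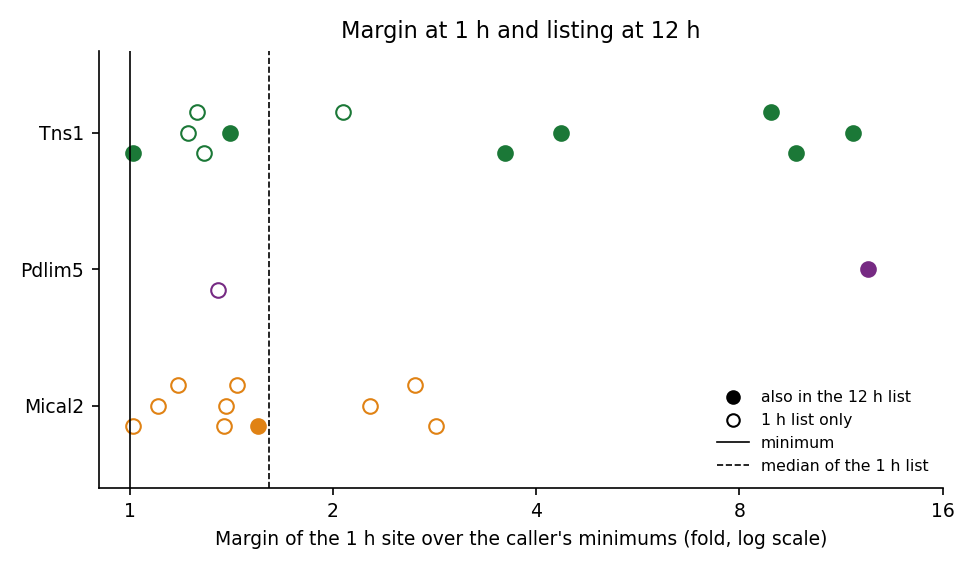
Margin of each 1 h site over the caller's minimums (fold, log scale) by gene, filled where the site was also in the 12 h list and open where it was in the 1 h list only, with the solid line at the minimum and the dashed line at the median of the 1 h list, 1.61. Mical2 sites lie between 1.01 and 2.84 with 1 filled point, and Tns1 sites reach 11.8.

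Few genes had as many sites around them. Within 100 kb, 6 of 21887 protein-coding genes (0.0274%) had 10 or more sites at 1 h, among them Tns1 and Mical2. The others were Csmd3, D630003M21Rik, Nfatc2 and Gse1, which had 8, 3, 3 and 2 sites at 12 h, against 11, 10, 10 and 11 at 1 h. Of these 6 genes 1 (16.7%), Mical2, had at most 1 site at 12 h. The place of Mical2 depends on the 100 kb window. Inside its span it had 6 sites at 1 h, and 16 genes, itself included, had at least as many inside theirs. At 12 h, 7 genes (0.032%) had 8 or more sites within 100 kb, and Tns1 was 1 of them. Longer genes have more room for sites, and these counts are not corrected for length.

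Over the 9 paired sites the tags had a median log2 ratio of -0.22. Fewer tags at 12 h were found at 8 of the 9, against 77.2% of all paired sites, but at 4 of the 9 with the median of all paired sites set to 0 and at 6 of the 9 by fold over the untreated library. At least 2-fold lower at 12 h was 1 site, site 11 of Tns1, beside 24.5% of all paired sites. At least 2-fold higher were 0 of the 9, beside 1.44% of all paired sites. Untreated raw tags at the 24 sites ranged from 6 to 23 in the 12 h windows and from 6 to 29 in the 1 h windows, around medians of 12 and 11 in the full lists. Sites with much untreated signal could not be listed unless the treated library was 6-fold higher, so this range is partly set by the caller.

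Near the 100 kb limit, the outermost included site at 1 h was site 1 of Mical2, 81.7 kb from the span with 19.9 tags. Just beyond the limit, 115 kb from Mical2 and inside Parva, a site held 25.6 tags at 12 h, against 116.6 at 1 h. Parva encodes alpha-parvin, an adaptor that links integrin-linked kinase to actin. The nearest excluded sites of Pdlim5 and Tns1 at 1 h lay 132 and 154 kb away and held 23.1 and 30.4 tags.

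By tags at 12 h and 1 h, the paired sites inside other genes most like the leading Tns1 site were those in Hhat (210.1 and 339.6 tags), Micall1 (173.3 and 263.4) and Klf13 (259.5 and 327.2), at distances of 0.178, 0.388 and 0.486 in log2 tags over 2 libraries. For the Pdlim5 site they were in Fkbp5 (283.7 and 263.6), Zbtb16 (420.8 and 250.2) and Klf13, at distances of 0.34, 0.389 and 0.43. The strongest Mical2 site had no 12 h partner. Its paired site 6 was most like sites in Atoh8 (10.7 and 17.1), Zfp985 (11 and 17.6) and Atp2b4 (10.9 and 16.6), at 0.0158, 0.0424 and 0.0529.

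Some relatives of the 3 genes carried sites as well. Tns1, Pdlim5 and Mical2 are counted in their families below, although they were chosen by their listed peaks. Among the 4 tensin genes, Tns1 included, 3 had a site within 100 kb at both times, and Tns4 had none. Of all protein-coding genes, 22.3% had one at 12 h and 37.4% at 1 h. Tns2 and Tns3 encode further adhesion adaptors of this family. Unless said otherwise, the site given for a relative or list gene is its strongest at 1 h. Its ratio of 12 h over 1 h is therefore partly set by that choice. The strongest 1 h site of Tns2, inside its span, held 111 tags at 12 h, against 186.5 at 1 h (log2 ratio -0.75, -0.86 to -0.64), and that of Tns3 held 31.5 tags at 12 h, against 74.9 at 1 h (-1.25, -1.45 to -1.05). At 12 h the strongest Tns3 site was another one, 53.8 kb outside the span, with 55.3 tags. The 1 h site of Tns2 was the only one in the lists of actin and adhesion genes that overlapped a RefSeq promoter window, the 250 bases before and 50 after a start site. Those windows were at hand for 77 of the 97 listed genes.

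The 250 bases before this Tns2 start site are shown because they are the only listed sequence that a site touched (GRCm38.p6, chr15:102102684-102102933, plus strand, RefSeq). Capitals mark the 103 bases inside the 1 h window (chr15:102102504-102102786), whose remaining part lies further upstream.
Tns2: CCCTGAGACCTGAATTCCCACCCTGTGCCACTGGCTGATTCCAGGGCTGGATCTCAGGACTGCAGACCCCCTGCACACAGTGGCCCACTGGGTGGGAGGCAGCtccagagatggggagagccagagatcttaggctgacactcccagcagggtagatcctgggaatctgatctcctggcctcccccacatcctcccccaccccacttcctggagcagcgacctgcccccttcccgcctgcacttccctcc

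The capitals held no match, on either strand, to the glucocorticoid response element (the hexamer AGAACA, 3 bases and its reverse complement), to its core ACANNNTGT, which lies within it, or to the hexamer alone. The capitals leave out the centre of the 1 h window. The whole promoter window of Tns2, of 300 bases, held none of these motifs either. Over all 32851 promoter windows of 300 bases, the core was present in 6.85%, the hexamer in 19.0% and the full element in 0.00913%. Of the 107 windows that overlapped a site at either time, 38.3% held the core and 29.0% the hexamer. None of the 4 promoter windows of Tns1, Pdlim5 and Mical2 overlapped a site at either time, and none held any of these 3 motifs. The site nearest to a start site of the 3 genes was site 5 of Mical2, 6.06 kb downstream. No match says only that these letters are not in these windows, and the sequence of the other sites was not used here.

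Among the 7 PDZ and LIM genes, Pdlim5 included, 3 had a site within 100 kb at 12 h and 4 at 1 h. Beside Pdlim5, Pdlim4 held 17.1 tags at 12 h, against 43.4 at 1 h, at a site 44.2 kb away, and Pdlim2 held 17.5 at 12 h, against 30.4 at 1 h, inside its span. Pdlim7 had a site of 8.39 tags at 1 h only, 46.8 kb away. These sites of Pdlim4 and Pdlim2 held fewer tags than the Pdlim5 site and were lower at 12 h, with log2 ratios of -1.34 and -0.80. Among the 5 MICAL genes, Mical2 included, 4 had a site at both times. Micall1, which encodes a MICAL-like protein of endosome recycling, held 173.3 tags at 12 h, against 263.4 at 1 h (log2 ratio -0.60, -0.70 to -0.51). A site 67 kb from Mical1 held 112.7 tags at 12 h, against 252.9 at 1 h (-1.17, -1.27 to -1.06). Mical3 held 24.1 tags at 1 h at its strongest site, which was not in the 12 h list.

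Of 94 further genes in 8 lists of actin and adhesion functions, 45 (47.9%) had a site within 100 kb at 12 h and 58 (61.7%) at 1 h, beside 22.3% and 37.4% of all protein-coding genes. The listed genes were longer, with a median span of 44.9 kb against 17.2 kb, and the part of length in these shares was not tested. At both times a site was found for 44 genes, at 1 h only for 14 and at 12 h only for 1. That 1 was Itga3, an integrin alpha subunit gene, with 9.21 tags at 12 h at a site 12.9 kb away, 7.29-fold over the untreated library. Integrins had a site at 8 of 13 genes at 12 h and 9 of 13 at 1 h, and focal adhesion adaptors at 9 and 12 of 20.

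Among integrin genes, the epithelial integrin subunit gene Itgb6 held 33.4 tags at 12 h, against 159.8 at 1 h (log2 ratio -2.26, -2.44 to -2.09), and Itgb5 held 40.9 at 12 h, against 89.1 at 1 h. Itga5 held 37.3 tags at 12 h, against 74.6 at 1 h, and Itgb1 held 16.1 at 12 h, against 36.6 at 1 h. The Itga5 and Itgb1 sites lay 1.5 and 5.63 kb outside the spans. Among adaptors, the LIM adaptor gene Lpp held 146.8 tags at 12 h, against 143 at 1 h, at a site 66.8 kb away (0.04, -0.07 to 0.15). The next strongest adaptor sites at 1 h had fewer tags at 12 h, with log2 ratios of -2.19 at Parva, -1.02 at Nedd9 and -1.57 at Bcar1. The Nedd9 and Bcar1 sites lay 33.4 and 66.0 kb away from these genes. At 12 h the strongest sites of Parva and Bcar1 were other ones, 53.1 and 52.9 kb away, with 64.7 and 37.4 tags. Genes for actin binding and crosslinking proteins had a site at 7 of 18 at 12 h and 11 of 18 at 1 h. Of these, Actn4, which encodes alpha-actinin 4, held 24.9 tags at 12 h, against 100.5 at 1 h (-2.02, -2.23 to -1.81). Vasp held 42.3 tags at 12 h, against 83 at 1 h, at a site 77.5 kb away. Fblim1 held 31.2 at 12 h, against 62.5 at 1 h, at a site 5.88 kb away. Svil, which encodes supervillin, held 65.4 tags at 12 h, against 67.3 at 1 h, 36.9 kb away (-0.04, -0.20 to 0.12). On the axis of the transcription factor SRF and its actin-sensing coactivators, 6 of 12 genes had a site within 100 kb at 12 h. At 1 h, 8 of 12 did. Within 25 kb, 0 of 12 had a site at 12 h and 3 of 12 at 1 h. The share of all protein-coding genes within 25 kb is not given here, so these counts have no background. A site 92.8 kb from the actin gene Actg1 held 58.8 tags at 12 h, against 93.9 at 1 h, and the coactivator gene Mrtfa held 37.3 tags at 12 h, against 69.3 at 1 h, 57.5 kb away.

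**Figure D5:**
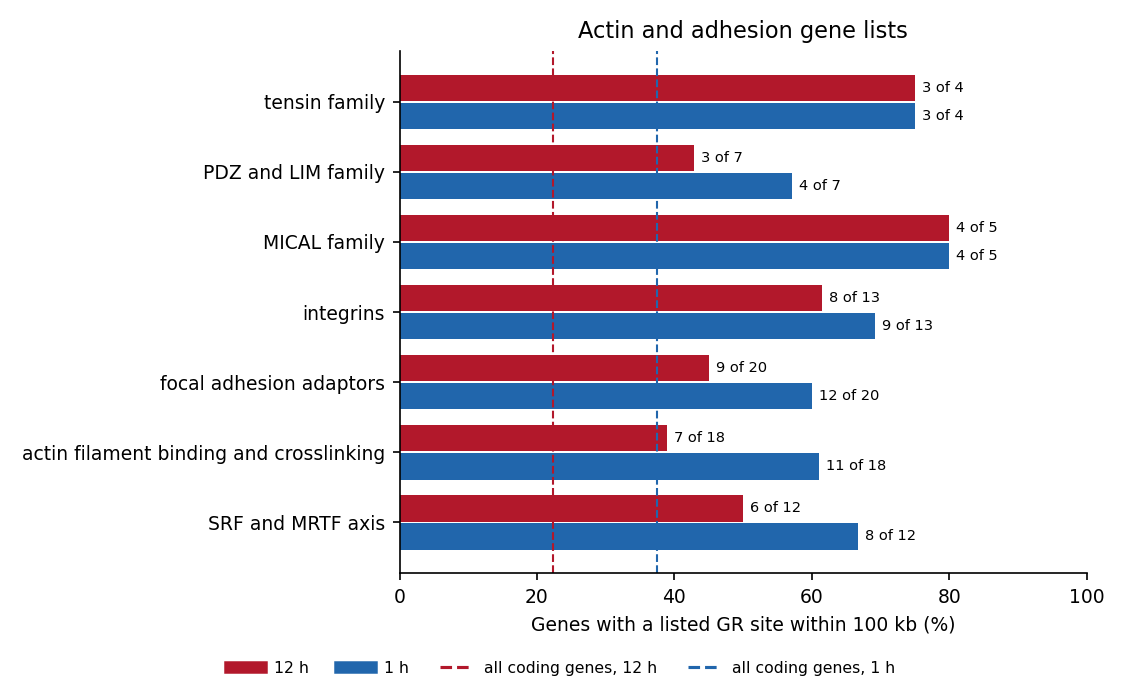
Share of genes in the lists shown with a listed GR site within 100 kb, in percent, at 12 h (upper bar) and 1 h (lower bar), with counts beside the bars and dashed lines for all protein-coding genes at 22.3% and 37.4%. The tensin and MICAL lists have 3 of 4 and 4 of 5 genes with a site at both times. The tensin, PDZ and LIM, and MICAL lists include Tns1, Pdlim5 and Mical2, which were chosen by their peaks.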

How the data were processed

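GR ChIP-seq peak lists of 33AP1C9 cells at 12 h and 1 h of corticosterone, with the untreated library as their control, were used. The submitters' processing notes name bcl2fastq 2.17, Bowtie2 2.2.6, HOMER and the build mm10. Peaks were called per library with findPeaks in factor style at a false discovery rate of 0.001, per the file headers. The deposited normalised tag count is a signal scaled to 10000000 tags, and the deposited control tags are untreated tags in the window. The folds over control and over local region are ratios by the caller, per the file headers. The score, focus ratio (a fraction) and p-value of each peak were deposited by the authors, and only the score was used. Deposited total tags, rescaled to each library, gave whole tag counts for 100% of peaks within 0.1 tag. The input sample is labelled with corticosterone, whereas the untreated list was called against an input named untreated, per the file headers.

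Pairing, distances and exact binomial intervals were computed with Python 3.11.15, pandas 2.3.3 and scipy 1.17.1, and tested on simulated data. Genes came from a RefSeq table of GRCm38.p6, and exons were not used here. All sites of the 3 genes are named, and from each gene list up to 4 genes by tags of their strongest 1 h site and each gene with a site at 12 h alone. A gene list is not reported here on its own. Genes, lists and comparisons were chosen with earlier results of these data known. Each condition has 1 library, so conditions were not tested against each other.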

Additional observations from a re-analysis of the deposited data

How the results depend on the processing

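No paired analysis was possible because each condition has 1 library. With only peaks at 2 or more times each minimum, Tns1 had 4 sites at 12 h, 6 at 1 h and 4 in both lists, Pdlim5 had 1 at 1 h, and Mical2 had 0 at 12 h, 3 at 1 h and 0 in both. Pdlim5 also had 1 site at 1 h inside the span, within 25 kb, by nearest protein-coding gene and with equal numbers of leading peaks, the last of which left Mical2 with 0 sites in both lists. With equal numbers of leading peaks, Tns1 had 8 sites at 12 h and 8 at 1 h, with 6 in both lists. Mical2 then had 7 sites at 1 h and 1 at 12 h. Mical2 had 6 sites at 1 h inside the span. Requiring an overlap of 0.5 of the 1 h window changed none of the paired counts, and pairing by centres within 100 bp left Tns1 with 6 sites in both lists. Per base of the window, the log2 ratio was -0.98 at Tns1 site 4 and 0.10 at Pdlim5 site 2. With the median of all paired sites set to 0, it was -0.38 at Tns1 site 4, 0.70 at Pdlim5 site 2 and -0.17 at Mical2 site 6, turned to 0.35 at Tns1 site 8 and 0.28 at site 9, and left 4 of 9 sites lower at 12 h. By fold over the untreated library, Pdlim5 site 2 was at 0.11, Tns1 sites 10 and 5 turned to 0.26 and 0.06, and 6 of 9 sites were lower at 12 h. Of the 94 further genes, 26 had a 12 h site within 25 kb, and 21 had one at 2 or more times each minimum. The share of all protein-coding genes is given only for any listed site within 100 kb, so these counts have no background here. Depth limits the weakest sites most, as at Mical2 site 6, where 106 whole tags at 12 h and 156 at 1 h gave an interval from -1.04 to -0.30.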
